A study of Homo sapiens with 2 samples.

Results

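Matricellular genes, 10 in all, were followed in embryoid body outgrowths of HUES9, a human embryonic stem cell line, grown with or without the kinase inhibitor SB-431542. They are CCN1, CCN2, CCN3 and CCN4 of the CCN family, the thrombospondins THBS1 and THBS2, periostin (POSTN), tenascin C (TNC), SPARC and TGFBI. Members were read through every probe set that the platform annotation gives to one of these genes alone, which gave 27 probe sets for 10 genes, of 41091 such probe sets for 19775 genes on the array. In SB-OG, HUES9 cells of passage 32 received SB-431542, which blocks the type I receptors of TGF-β, activin and nodal, at 10 µM through 10 days as embryoid bodies and at 1 µM as outgrowths. In control-OG, the same line received DMSO at 0.01% as vehicle. The labels do not say whether SB-OG also held DMSO. Both cultures were plated on fibronectin at 10 µg/ml in one chemically defined medium and taken at outgrowth passage 5. Each Affymetrix array read RNA of 3 mixed samples, so there is 1 array per condition of 1 line, no difference has a replicate check, and no p-value is given. The inhibitor was present at both stages, so effects of the embryoid body stage and of the outgrowth stage cannot be told apart.

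Matricellular proteins are secreted into the extracellular matrix, where they bind integrins, proteoglycans, growth factors and structural fibres and alter how cells attach and signal, rather than bearing load themselves. CCN proteins are built from modules that bind integrins, heparan sulfate and growth factors. CCN1 and CCN2 are textbook targets of the YAP and TEAD transcription factors, and CCN2, TGFBI, POSTN, TNC, SPARC and THBS1 are known to respond to TGF-β in fibroblasts. In skeletal muscle, several of them are known from repair and fibrosis, and tenascin C from tendon and the myotendinous junction.

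The upstream sequences show where the members differ in the binding motif of the TEAD factors, whose other targets are compared with CCN1 and CCN2 below. For 7 of the 10 members a promoter was matched by symbol in RefSeq, build GRCh38.p14. CCN1, CCN3 and CCN4 were not among these 7 and were not searched, so the motif is not compared between CCN1 and CCN2. The 250 bases before the gene start were searched on both strands for GGAATG, the core of the TEAD motif. It was present in 4 of the 7, with 3 copies before CCN2, 2 before THBS2 and 1 each before THBS1 and SPARC, and was not found in the windows of POSTN, TNC and TGFBI. Of 35116 promoter windows of the same length, 11.9% held the motif, 0.94% held it at least 2 times and 0.083% at least 3 times. Shown here are the windows with the most copies, CCN2 and THBS2, with THBS1 as the other thrombospondin and TGFBI as the member with the lowest SB-OG to control-OG ratio. Capitals mark the motif, and each sequence reads 5′ to 3′ toward the gene.
CCN2, chr6:131951373-131951622, minus strand: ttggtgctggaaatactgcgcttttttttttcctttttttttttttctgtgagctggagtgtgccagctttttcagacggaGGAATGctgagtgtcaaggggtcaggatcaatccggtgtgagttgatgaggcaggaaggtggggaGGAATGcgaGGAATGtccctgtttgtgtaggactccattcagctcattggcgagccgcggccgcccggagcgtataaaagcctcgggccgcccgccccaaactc
THBS2, chr6:169253847-169254096, minus strand: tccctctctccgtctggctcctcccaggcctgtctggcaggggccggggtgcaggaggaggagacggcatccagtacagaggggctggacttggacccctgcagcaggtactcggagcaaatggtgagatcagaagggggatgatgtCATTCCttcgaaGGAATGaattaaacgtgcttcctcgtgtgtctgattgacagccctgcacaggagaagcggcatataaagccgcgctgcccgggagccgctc
THBS1, chr15:39580829-39581078, plus strand: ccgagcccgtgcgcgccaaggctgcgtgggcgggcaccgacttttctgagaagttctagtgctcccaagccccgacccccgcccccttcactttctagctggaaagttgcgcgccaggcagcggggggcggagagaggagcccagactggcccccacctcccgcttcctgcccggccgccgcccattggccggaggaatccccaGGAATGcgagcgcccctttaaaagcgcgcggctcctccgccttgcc
TGFBI, chr5:136028738-136028987, plus strand: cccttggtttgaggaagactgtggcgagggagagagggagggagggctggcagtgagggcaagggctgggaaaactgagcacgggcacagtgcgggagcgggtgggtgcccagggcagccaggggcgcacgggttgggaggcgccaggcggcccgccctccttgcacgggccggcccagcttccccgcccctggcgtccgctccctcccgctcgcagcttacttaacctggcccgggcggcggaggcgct
The core of the SMAD binding element, CAGAC on either strand, was in the windows of 5 of the 7 members and in 38.0% of all windows. TGFBI and SPARC had no copy in these 250 bases. A match is a run of letters and was not read as a bound site.

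Levels are the deposited linear intensities. Background was set on each array from 219 probe sets of gene families not expected in these cultures, such as olfactory receptors, at their 95th percentile, which was 27.0 on SB-OG and 31.9 on control-OG. A value under it was set to that level before a difference was taken, so a fold for a probe set above background on 1 array only is a lower bound, written "at least". Each difference is log2 SB-OG minus log2 control-OG. Probe sets of the same gene varied in this difference with an SD of 0.47 over 4962 genes. This is a spread of single probe sets about the mean of their gene, whichever transcripts they read, and not an error of the conditions. A gap between a pair of probe sets varies more than this. Levels of different probe sets are not set against each other. As a check of the cultures, 10 of 10 skeletal muscle markers were higher in SB-OG by 2-fold or more, with a summed intensity of 47718 on SB-OG and 403 on control-OG. Of 10 fibroblast and mesenchyme markers, 7 were lower by 2-fold or more and 2 higher. Their intensities summed to 51740 on SB-OG and 105994 on control-OG. Epithelial markers summed to 488 on SB-OG and 16539 on control-OG, and of 7 on the array 3 were 2-fold lower (KRT8, KRT18 and KRT19) and 1 was higher (CDH1). Endothelial markers summed to 120 on SB-OG and 1419.7 on control-OG (2 of 8 lower), and blood cell markers to 62.2 on SB-OG and 315 on control-OG (1 of 6 lower). EPCAM, CDH5, VWF and PTPRC were under background on both arrays. Neural markers summed to 12967 on SB-OG and 7302 on control-OG (3 of 8 higher, 1 lower) and smooth muscle markers to 21006 on SB-OG and 19672 on control-OG (3 of 8 higher). The 3 higher smooth muscle markers were MYH11, LMOD1 and DES. DES is also in the skeletal muscle list and was at 2550 on SB-OG and 51.7 on control-OG. Its gain exceeds the gap between the smooth muscle sums, so no direction is read from those sums. Of 7 pluripotency markers, 5, NANOG among them, were under background on both arrays. SOX2 was at 147 on SB-OG and 14.2 on control-OG, at least 4.62-fold higher, with another probe set at -0.07 on the log2 scale. DNMT3B was at 149 on SB-OG and 120 on control-OG. The ratio of 3′ to 5′ signal was 0.958 on SB-OG and 0.995 on control-OG for GAPDH.

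Among the 10 members, TGFBI stood furthest from equality and most of the others lay within 2-fold. CCN3 had only a lower bound, so whether it passed 2-fold is not known. By the brightest probe set of each gene, 2 of 10 (TGFBI and CCN4) were lower in SB-OG by 2-fold or more and 0 were higher by as much. The count of 2 is a minimum, because CCN3 was at least 1.86-fold lower, and the shares over all genes were counted with the same floor. Of the 12580 genes that exceeded background on 1 array or both, 13.0% were 2-fold lower and 12.4% were 2-fold higher, so a count of 2 lower genes in 10 is close to what the arrays show in general. The median log2 difference was -0.55 over the members and -0.02 over all genes. When SB-OG was rescaled on 18 probe sets of the spiked hybridisation controls, every difference moved up by 0.48, the members' median was -0.075 and that of all genes 0.45, and 77.1% of the 2-fold different genes were higher in SB-OG, against 48.9% as deposited. The members' median minus that of all genes was -0.53 as deposited, -0.28 with quantile normalization and -0.33 with lowess correction.

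**Figure D1:**
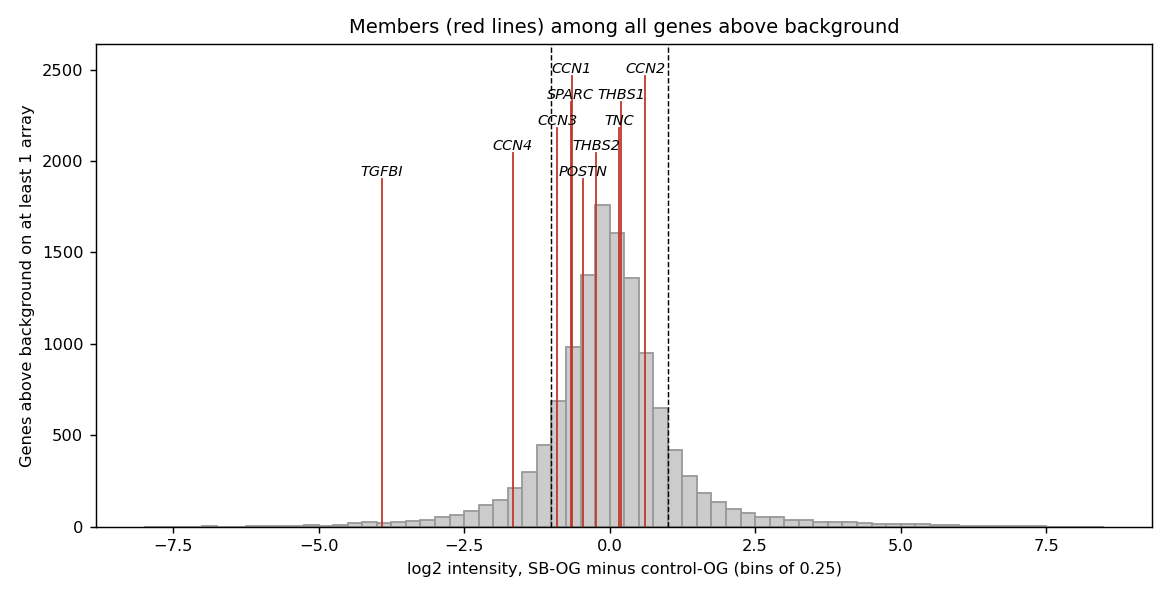
Histogram of the log2 intensity difference (SB-OG minus control-OG, x axis, bins of 0.25) over 12580 genes above background on at least 1 array (y axis, number of genes), with a red line at each of the 10 members by its brightest probe set and dashed lines at 2-fold. TGFBI at -3.92 lies in the low tail, CCN4 at -1.66 lies outside the dashed line, and the other 8 lie between the dashed lines. Of these, CCN3 is drawn at a bound of -0.90, so its difference may be larger.

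In the CCN family, the abundant pair CCN1 and CCN2 went in different directions, and CCN3 and CCN4 were near background. CCN2, the connective tissue growth factor gene, had an intensity of 2926 on SB-OG and 1919.6 on control-OG by its 1 probe set. This was 1.52-fold higher in SB-OG, a log2 difference of 0.61, the most positive of the members by brightest probe set (THBS1 has a dimmer probe set at 0.63). Rescaled on the hybridisation controls the difference was 1.08, past 2-fold.

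CCN1, a matrix-bound angiogenic factor, had intensities of 1903 on SB-OG and 2985 on control-OG by its brighter probe set, 1.57-fold lower in SB-OG. Its other probe set read 1283 on SB-OG and 2705 on control-OG, a log2 difference of -1.08 against -0.65 for the brighter one. Both probe sets were lower in SB-OG, on either side of the 2-fold line. The gap between them was no larger than the SD of 0.47 of single probe sets about their gene. The second was just inside 2-fold with quantile normalization (-0.99) and lowess correction (-0.98). Rescaled on the hybridisation controls, CCN1 gave -0.17 by the brighter probe set and -0.60 by the other, so it was then close to equal by the brighter one.

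CCN3, named NOV in older annotation, was at 10.6 on SB-OG and 50.3 on control-OG by its brighter probe set. It was above background on control-OG only, at least 1.86-fold lower in SB-OG. Its second probe set was at 10.1 on SB-OG and 19.6 on control-OG, under background on both arrays. With the background at the 99th percentile, CCN3 was not above it on either array.

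CCN4, a target of Wnt signalling also known as WISP1, was lower in SB-OG by each of its 3 probe sets above background on control-OG. The brightest read 36.4 on SB-OG and 115 on control-OG, 3.17-fold lower. A second read 17.4 on SB-OG and 61.8 on control-OG, at least 2.29-fold lower, and another 23.6 on SB-OG and 51.1 on control-OG, at least 1.89-fold lower. The fourth, at 1.89 on SB-OG and 29.6 on control-OG, was not above background on either. All of these levels were close to background, and with background at the 99th percentile (76.4 on SB-OG, 51.9 on control-OG) no SB-OG reading of CCN4 was above it. The brightest probe set then gave a bound of -0.59, which leaves the size of the difference unmeasured, and the second had no direction because 61.8 lies under 76.4.

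**Figure D2:**
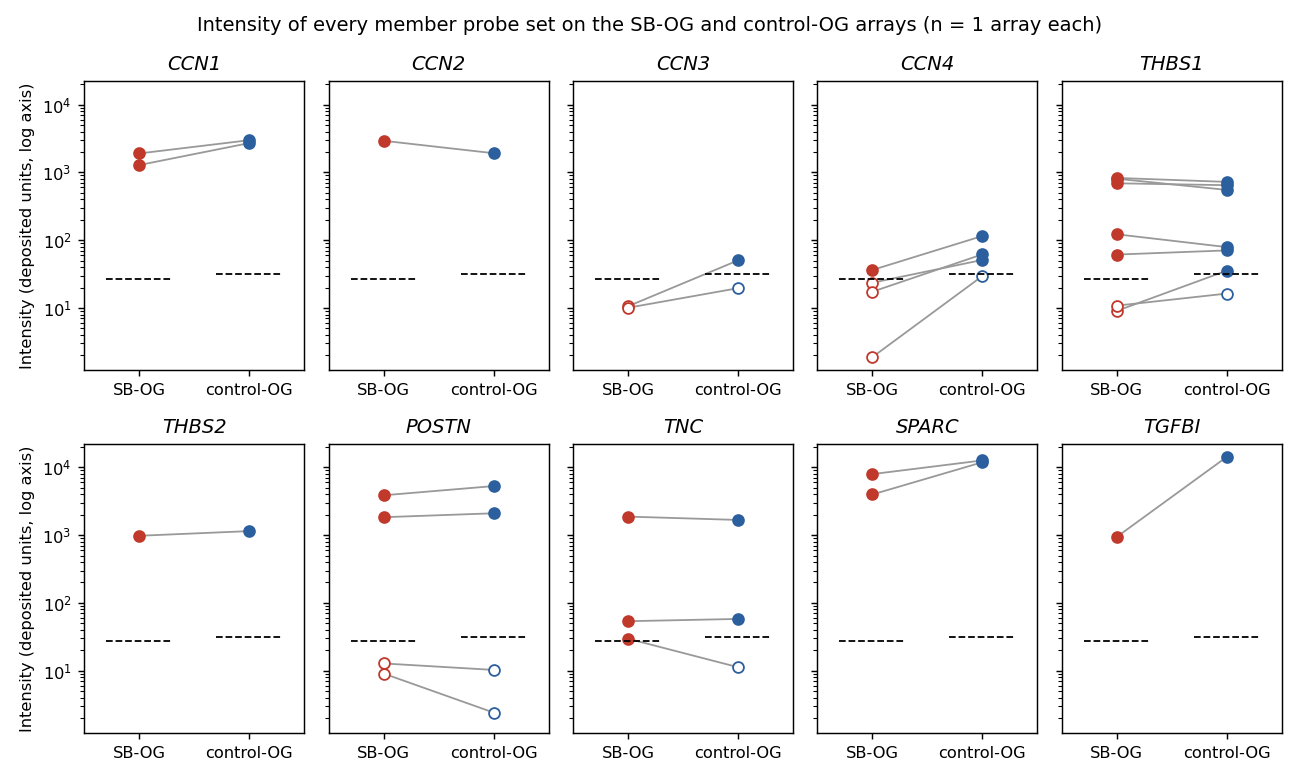
Intensity in deposited units (log y axis) of every member probe set on the SB-OG and control-OG arrays, 1 array each, with a line joining the readings of one probe set, open circles for readings under background and dashed lines at the background level of each array. TGFBI was at 942 on SB-OG, against 14252.5 on control-OG, while the lines of THBS1, THBS2, POSTN and TNC that are well above background are nearly level.

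The thrombospondins were nearly level between the cultures. THBS1 encodes a trimeric glycoprotein that binds CD36 and CD47 and can activate latent TGF-β. Its brightest probe set read 829 on SB-OG and 724 on control-OG, a log2 difference of 0.19. The next ones read 691 on SB-OG and 647 on control-OG (0.09), and 806 on SB-OG and 552 on control-OG (0.55). Dimmer probe sets read 122 on SB-OG and 79.0 on control-OG (0.63), and 61.4 on SB-OG and 70.7 on control-OG (-0.20). One was above background on control-OG only (9.07 on SB-OG, 35.5 on control-OG, at least 1.32-fold lower) and one on neither. The 5 probe sets above background on both arrays thus spanned zero, from -0.20 to 0.63, inside 2-fold, and the bound of the sixth sets no upper limit on its fold. After rescaling on the hybridisation controls, the probe sets at 0.55 and 0.63 gave 1.02 and 1.10, just past 2-fold. THBS2, a paralogue that like THBS1 inhibits angiogenesis, was at 977 on SB-OG and 1145 on control-OG, a log2 difference of -0.23 by its 1 probe set, and 0.25 after rescaling on the hybridisation controls.

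Tenascin C, a hexameric glycoprotein of embryonic, tendon and wound matrix, was also close to equal. Its bright probe set read 1874 on SB-OG and 1673 on control-OG, 1.12-fold higher in SB-OG. A dim one read 53.7 on SB-OG and 58.0 on control-OG, a log2 difference of -0.11. The remaining one exceeded background on SB-OG alone, at 29.6 against 11.3 on control-OG, and no fold is given because 29.6 lies under the background level of control-OG.

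SPARC, a collagen-binding glycoprotein needed for orderly collagen fibrils, was lower in SB-OG by both probe sets but by unequal amounts. One read 7941 on SB-OG and 12637 on control-OG, 1.59-fold lower. The other read 3977 on SB-OG and 11881.5 on control-OG, 2.99-fold lower. The log2 differences were -0.67 and -1.58, so whether SPARC passed 2-fold depended on the probe set read. After rescaling on the hybridisation controls they were -0.20 and -1.10, and with quantile normalization -0.38 and -1.37.

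Periostin and TGFBI are paralogues that share fasciclin domains and bind collagen and integrins, and they differed widely here. POSTN, made by fibroblasts of periosteum, ligament and healing tissue, read 3867 on SB-OG and 5283 on control-OG by its brightest probe set, 1.37-fold lower. A second read 1836 on SB-OG and 2097 on control-OG, 1.14-fold lower, and the remaining 2 were under background on both arrays. After rescaling on the hybridisation controls these differences were 0.03 and 0.28.

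TGFBI, named for its induction by TGF-β, read 942 on SB-OG and 14252.5 on control-OG, 15.1-fold lower in SB-OG. Of 12580 genes, 99 had a more negative difference, which puts TGFBI at percentile 0.79. It has 1 probe set on the array, so no second reading of it exists. The log2 difference was -3.92 as deposited and between -3.92 and -3.44 over all settings tried. Fibroblast and mesenchyme markers were lower in SB-OG alongside it, and their part in this result was not tested. In these bulk samples, fewer cells that make a transcript and less of it per cell cannot be told apart.

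**Figure D3:**
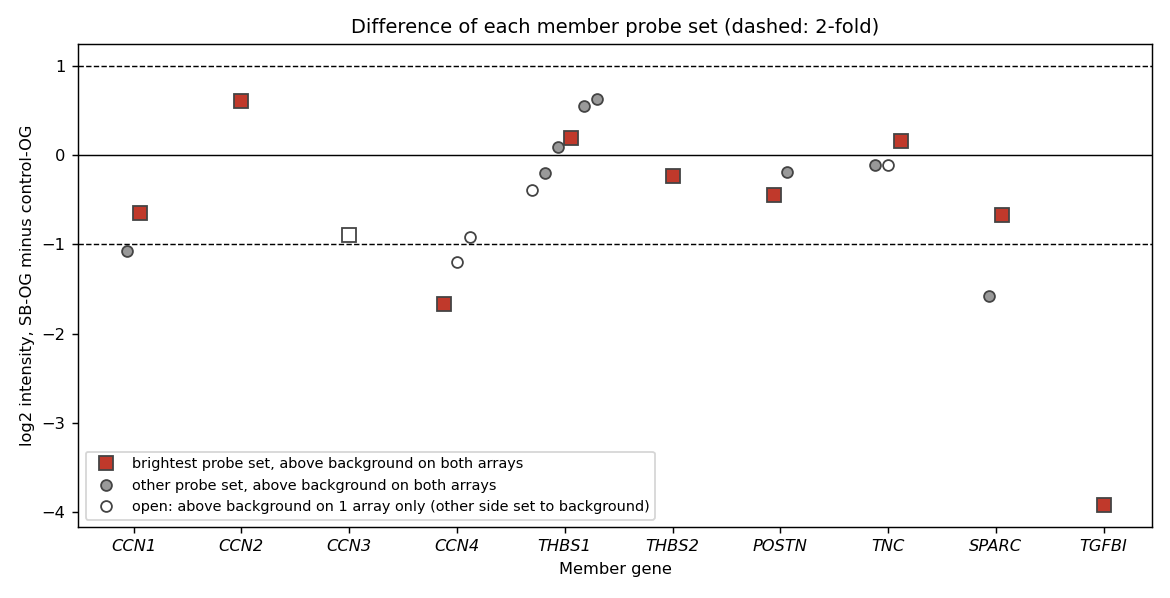
Log2 intensity difference (SB-OG minus control-OG, y axis) of each member probe set above background on at least 1 array, by gene (x axis). Squares are the brightest probe set of a gene, circles the others, open symbols are above background on 1 array only and are drawn at the bound, and dashed lines mark 2-fold. The open circle of TNC is not a bound, because its SB-OG reading lies under the control-OG background, and its place shows no direction. Of the 22 probe sets, 5 lie at or below the lower dashed line (1 of CCN1, 2 of CCN4, 1 of SPARC and TGFBI) and 0 above the upper one.

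Over probe sets rather than genes, 22 of the 27 were above background on at least 1 array (17 on both, 4 on control-OG only, 1 on SB-OG only). Among the 22, 5 were lower in SB-OG by 2-fold or more and 0 higher. Among all 23568 probe sets with 1 gene above background, 12.0% were 2-fold lower and 12.7% were 2-fold higher. Probe sets of one gene share its transcript and are not independent.

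Other matricellular genes were read from a list of 17, of which 10 were above background on at least 1 array. Among them, 3 were lower by 2-fold or more in SB-OG and 1 was higher, with a median log2 difference of -0.43, which was 0.04 after rescaling on the hybridisation controls. The median of -0.43 includes SPOCK2 (-0.18) and TNN (-0.14), which were above background on SB-OG only. Their SB-OG readings lay under the background level of control-OG, so these values show no direction. SPARCL1, the SPARC paralogue also called hevin, was at 841 on SB-OG and 25.0 on control-OG, at least 26.4-fold higher, whereas SPARC itself was lower. SPOCK1, a testican proteoglycan with a SPARC-type domain, was at 159 on SB-OG and 1696 on control-OG, 10.7-fold lower. SPP1, the osteopontin gene, was 2.72-fold lower and SMOC2 2.15-fold lower. Both were inside 2-fold after rescaling on the hybridisation controls (-0.97 for SPP1, -0.63 for SMOC2), and 1 gene of the list was then 2-fold lower. With background at the 99th percentile SPP1 gave a bound of -0.86. Probe sets called specific by name here are those without an _s_at, _x_at or _a_at ending. Over these 1 gene of 7 above background was 2-fold lower, but SPP1 and SMOC2 had no such probe set above background. CCN5, CCN6, COMP, TNR and TNXB were under background on both arrays. THBS3 was at 262 on SB-OG and 251 on control-OG.

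Receptors through which matricellular proteins act were lower and higher in different members. Of 17 above background, 8 were lower in SB-OG by 2-fold or more and 4 higher. After rescaling on the hybridisation controls 5 were lower. Over probe sets specific by name 4 were lower, of only 14 genes above background there. Their median was -0.92, but it was 0.16 over probe sets specific by name and -0.05 with the mean of all probe sets, so no direction is given for the list. Whether the probe sets left out by name read other genes was not examined. SDC4, a syndecan that works with integrins at focal adhesions, was at 175 on SB-OG and 1165 on control-OG, 6.65-fold lower. CD36, a thrombospondin receptor and fatty acid transporter, was at 1445.5 on SB-OG and 13.1 on control-OG, at least 45.4-fold higher, with its other probe sets at 3.66 to 3.81 on the log2 scale. CD47, the other thrombospondin receptor named above, was at 507 on SB-OG and 1622 on control-OG by its brightest probe set, with other probe sets between -1.54 and 0.31.

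Integrin subunits also divided. ITGA6, a laminin-binding subunit that also serves CCN1 and CCN2, was at 2636 on SB-OG and 148 on control-OG, 17.8-fold higher, and its other probe set gave a like log2 difference of 4.19. ITGB8, a partner of the αv subunit in TGF-β activation, was 16.1-fold higher (656 on SB-OG, 40.7 on control-OG). With the mean of all its probe sets the log2 difference was 1.99, against 4.01 by the brightest. Its 1 other probe set above background on at least 1 array gave -0.03. The αv subunit gene ITGAV was at 1575 on SB-OG and 3206 on control-OG, and ITGA5, which pairs with β1 to bind fibronectin, was at 281 on SB-OG and 912 on control-OG. ITGAV, ITGA5 and CD47 were named after their values were seen.

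Structural partners of the members were mostly lower in SB-OG. Of 18 above background, 9 were lower by 2-fold or more and 1 was higher (COL6A3), with a median of -0.99, and 5 were lower after rescaling on the hybridisation controls. LOX, the enzyme that cross-links collagen, was at 673 on SB-OG and 15339 on control-OG, 22.8-fold lower, and its other probe sets gave -6.27 to -5.42. COL5A1, a chain that starts collagen fibrils, was at 2291 on SB-OG and 13331 on control-OG, 5.82-fold lower. BMP1, a procollagen proteinase that periostin binds, was 4.06-fold lower (235 on SB-OG, 953 on control-OG; log2 -2.02, and -1.24 by the probe sets specific by name) and COL12A1, a fibril-associated collagen, 3.62-fold lower (2313 on SB-OG, 8374 on control-OG). COL6A3, a chain of the microfibrillar type VI collagen, was at 4590.3 on SB-OG and 1631 on control-OG. Some of these collagens are also among the fibroblast markers.

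**Figure D4:**
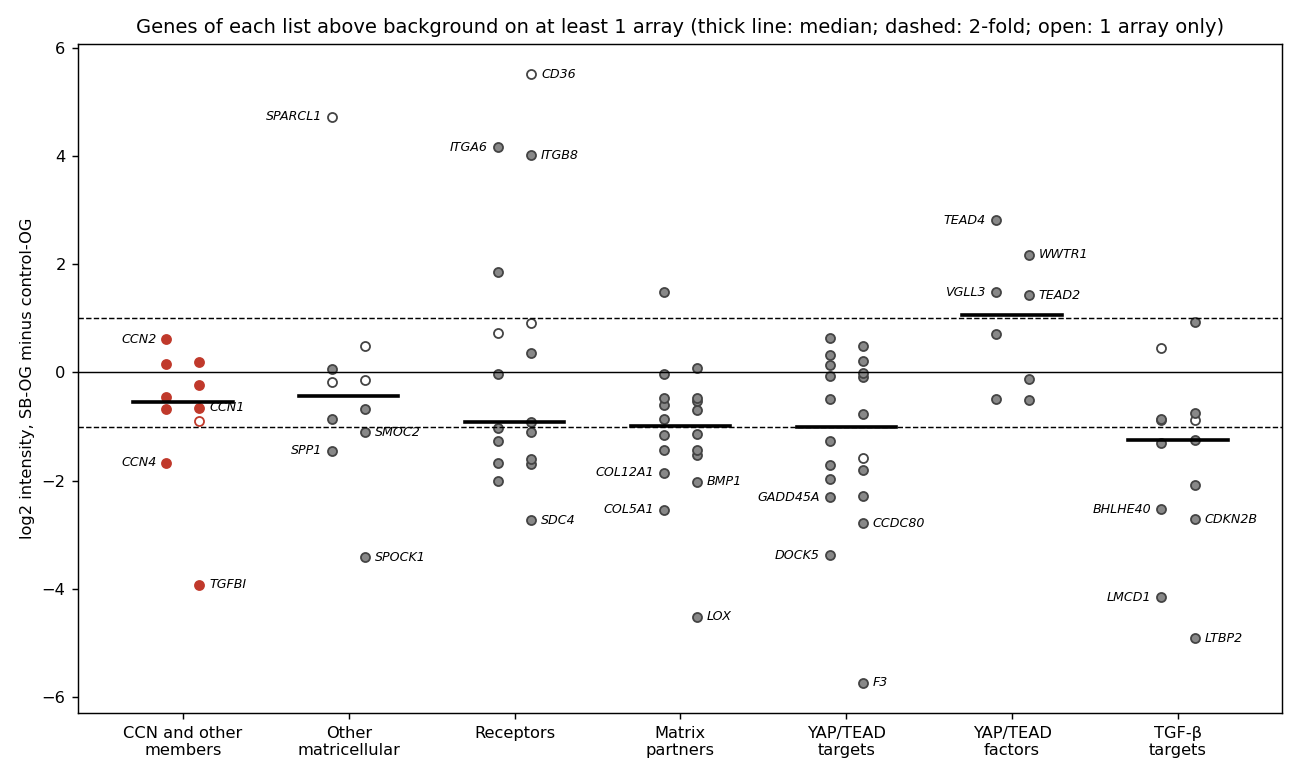
Log2 intensity difference (SB-OG minus control-OG, y axis) of the genes of each list that were above background on at least 1 array, with members in red, thick lines at list medians, dashed lines at 2-fold and open circles for genes above background on 1 array only. The median is -0.55 for the members, -0.99 for the matrix partners, -1.02 for the YAP/TEAD targets and -1.25 for the TGF-β targets, and TGFBI is the lowest member at -3.92.

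CCN1 and CCN2 were set beside other known targets of YAP and TEAD. Of 20 such genes above background, 10 were lower in SB-OG by 2-fold or more and 0 higher, with a median of -1.02. After rescaling on the hybridisation controls 1 was higher and the median was -0.54. F3, the tissue factor gene, was at 28.7 on SB-OG and 1529.5 on control-OG, 53.3-fold lower. Its SB-OG reading was just over background, and with the background at the 99th percentile the log2 difference was a bound of -4.32. DOCK5, an exchange factor for Rac, was 10.4-fold lower (73.7 on SB-OG, 765 on control-OG, with a log2 difference of -3.38 against -2.38 for the mean of all its probe sets), CCDC80, a secreted matrix protein, 6.90-fold lower (1713 on SB-OG, 11814 on control-OG, with other probe sets at -3.47), and GADD45A, a stress sensor, 4.94-fold lower (617 on SB-OG, 3044 on control-OG). The members read -0.65 for CCN1 and 0.61 for CCN2 by the brightest probe set. AMOTL2 at -0.49 and LATS2 at -0.07, further targets named after their values were seen, also lay within 2-fold.

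Among the transcription factors and cofactors of that pathway, some were higher in SB-OG and the others lay within 2-fold by their brightest probe sets. Of 8 genes, 4 were higher in SB-OG by 2-fold or more and 0 lower (median 1.06). After rescaling on the hybridisation controls 5 were higher and 0 lower, and the median was 1.54. TEAD4, a TEAD factor used in muscle differentiation, was at 1149 on SB-OG and 164 on control-OG, 7.02-fold higher. WWTR1, which encodes the YAP relative TAZ, was at 4800.4 on SB-OG and 1061 on control-OG, 4.52-fold higher. VGLL3 and TEAD2 were 2.78-fold and 2.68-fold higher, but the other TEAD2 probe sets gave 0.40 and 0.57, and with the mean of all probe sets (0.80) TEAD2 was inside 2-fold and the count of higher genes was 3. As deposited, YAP1 itself was lower in SB-OG, at 1273 against 1788 on control-OG (-0.49), with its other probe sets at -0.68 and -1.10. VGLL4 gave -0.52 by its brightest probe set and -0.82 by the other. Rescaling on the hybridisation controls moved every difference up by 0.48, which brings YAP1 and VGLL4 close to equality by their brightest probe sets. YAP1 and VGLL4 were named after their values were seen. Skeletal muscle markers were higher in SB-OG alongside these genes, and their part in this result was not tested.

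TGF-β target genes outside the member list were lower for 7 of 13 at 2-fold and higher for 0 (median -1.25, and -0.77 after rescaling on the hybridisation controls, when 1 was higher). LTBP2, which binds fibrillin microfibrils, was at 48.4 on SB-OG and 1458 on control-OG, 30.1-fold lower. LTBP2 gave -4.91 by this probe set and -4.29 by the mean of all its probe sets. LMCD1 was 17.8-fold lower (-4.15), and gave -3.44 by the mean of all its probe sets and -5.08 by the one specific by name. Lower too were the cell cycle inhibitor gene CDKN2B, 6.57-fold, and the transcriptional repressor gene BHLHE40, 5.78-fold. Of the members known as TGF-β targets, TGFBI lay among these values. SPARC (-0.67 and -1.58) and POSTN (-0.45 and -0.19) were lower in SB-OG by each probe set above background, while CCN2 (0.61), THBS1 (0.19) and TNC (0.16) read above control-OG by their brightest probe sets. For TNC the mean of all probe sets gave -0.02, but it includes the probe set for which no fold is given.

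**Figure D5:**
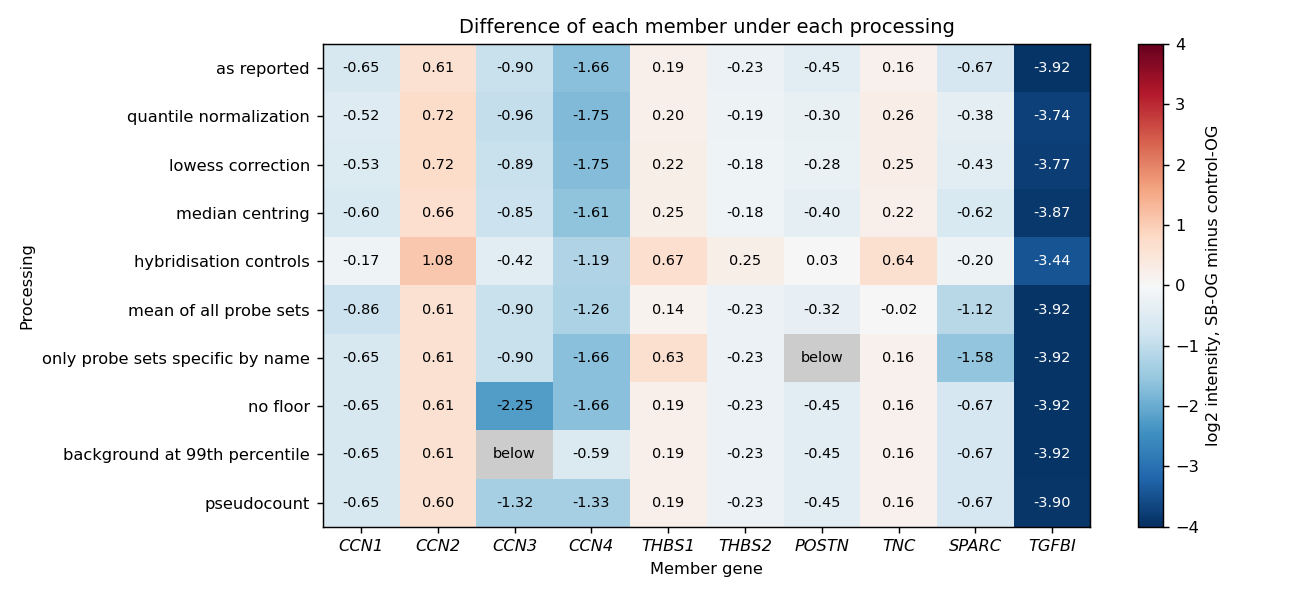
Log2 intensity difference (SB-OG minus control-OG, colour and number) of each member (columns) under each processing (rows), with grey where the probe set read was under background on both arrays. TGFBI is between -3.92 and -3.44 in every row. CCN2 is between 0.60 and 1.08, and the signs of THBS2 and POSTN turn on the hybridisation controls. TNC is at -0.02 with the mean of all probe sets, which includes a probe set whose difference shows no direction.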

How the data were processed

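RNA of HUES9 embryoid body outgrowths was read on 1 array for SB-OG and 1 for control-OG, each from 3 mixed samples, per the labels. The authors deposited 1 linear intensity per probe set, 54675 per array. The sources used here do not name the summarising software. The arrays look scaled alike: the mean without the lowest and highest 2% was 150.0 on each. Such scaling hides a change in total RNA. The log2 medians differed by 0.05, under the limit of 0.1, so values were used as deposited.

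Names came from the platform annotation of 2016, updated by gene ID (19735 of 19775 genes matched). Each gene was read through its brightest probe set (mean log2 intensity over both arrays). Background used 219 probe sets of 177 genes (olfactory and taste receptors, defensins, keratin-associated and late cornified envelope proteins). All members and their probe sets are reported. From each of 6 other lists (99 genes, 96 on the array), up to 4 genes were named by the size of their difference, if 2-fold or more, and other genes were named after their values were seen. The members and lists were chosen with earlier results of these data known. No test was possible with 1 array per condition, and having so few arrays limits precision throughout. The alternatives covered scaling, choice of probe sets, background, a pseudocount of 16 and a 3-fold threshold. One choice of probe sets, called specific by name, left out names ending in _s_at, _x_at or _a_at. Scripts were tested on simulated data. Software was Python 3.11.15 with pandas 2.3.3, numpy 2.4.6 and statsmodels 0.14.6.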

Additional observations from a re-analysis of the deposited data

How the results depend on the processing

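The 3 summaries of the members (genes 2-fold lower, genes 2-fold higher, median difference) were recomputed under 9 alternatives, and the 2 counts also at 3-fold. The median ranged from -0.65 to -0.075, the value -0.075 being that with the hybridisation controls, where 1 member (CCN2) was 2-fold higher. With background at the 99th percentile 1 member (TGFBI) was 2-fold lower and CCN4 had only bounds, -0.59 by its brightest probe set. Its second probe set came out at 0.31, which is the SB-OG background over the control-OG reading and shows no direction. Under the other alternatives 2 or 3 members were 2-fold lower, the extra one being SPARC when probe sets were averaged or chosen by name and CCN3 with no floor or the pseudocount. THBS2 and POSTN turned sign with the hybridisation controls, both within 2-fold. TNC came out at -0.02 with the mean of all probe sets. That mean includes the probe set given no fold, so no direction is read from its sign. POSTN had no value over probe sets specific by name, because its probe sets above background end in _s_at or _a_at and were left out. Whether such probe sets read other genes was not examined. Over all genes, 908 were 2-fold lower and 3055 higher with the hybridisation controls, against 1638 and 1565 as deposited. Which scale is nearer to RNA per cell was not tested. Signals near background limit what can be said of CCN3 and CCN4. No paired analysis was possible because each condition has 1 array.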

Other observations

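Within FN1 and ITGB1, the genes of fibronectin and of the β1 integrin subunit that binds fibronectin, thrombospondins and CCN proteins, probe sets of one gene read differently. Both genes were singled out after their values were seen. FN1 had 7 probe sets above background, all lower in SB-OG. The brightest read 10159 on SB-OG and 16500 on control-OG, 1.62-fold lower, while a dim one read 35.8 on SB-OG and 610.3 on control-OG, 17.0-fold lower, and another read 855 on SB-OG and 8688 on control-OG, 10.2-fold lower.

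ITGB1 had 4 probe sets above background on at least 1 array. The brightest read 5913 on SB-OG and 11212.5 on control-OG, 1.90-fold lower, and the next was 2.28-fold lower. Against these, a dim one read 191 on SB-OG and 28.3 on control-OG, at least 5.99-fold higher. Which transcripts these probe sets read was not examined.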
